A study of Homo sapiens with 21 samples.

Results

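Chemokines are small secreted proteins that steer leukocytes, and the genes described here are 6 ligands (CXCL8, CXCL1, CXCL2, CXCL3, CXCL10 and CCL2) and 3 receptors (CCR1, CCR2 and CXCR4). They were found by their symbols in the platform annotation of the array, which gave 21 probe sets out of 22277 in the table, for 9 of 12165 named genes. All 21 were kept and tested. A probe set is a group of short probes that together read 1 transcript. CXCL8 has 9 of the 21 probe sets, CXCR4 has 3, CCR1 and CCR2 have 2 each, and CXCL1, CXCL2, CXCL3, CXCL10 and CCL2 have 1 each. Another 4 probe sets carry CXCL8 among several symbols and were not used.

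RNA came from 3 human acute myeloid leukaemia lines: MOLM-14, a monocytic line known for an internal tandem duplication in the receptor kinase FLT3, the monocytic line U937 and the promyelocytic line HL-60. Within each line, 2 arrays carried RNA of cells with the hairpin shSYK_1, 2 with shSYK_2 and 3 with shLuc, a hairpin against luciferase, which these cells lack. Both SYK hairpins lower SYK, a cytoplasmic tyrosine kinase downstream of immune receptors and integrins. Every group, shLuc included, was infected with a hairpin virus, put under puromycin at 1 µg/ml from 48 h after infection, and had its RNA taken at day 5. This gave 21 arrays in 9 groups. According to the labels each replicate was its own infection, so the p-values reflect variation between infections of 3 fixed lines. Values are log2 of the deposited array intensity, and a change is a difference of group means on that scale, with a Benjamini-Hochberg adjusted p over all 22215 probe sets that are not array controls. A probe set is said to rise or fall where the adjusted p was below 0.05. In RNA of whole cultures, fewer cells of a type and less RNA per cell cannot be told apart.

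Chemokines signal through receptors with 7 membrane spans that couple to inhibitory G proteins. CXCL8, CXCL1, CXCL2 and CXCL3 draw neutrophils, mainly through CXCR2, CXCL10 is an interferon-induced ligand of CXCR3, and CCL2 draws monocytes through CCR2. CCR1 binds CCL3, CCL5 and CCL23 among others. CXCR4 binds CXCL12 and is known for holding blood stem cells and leukaemic cells in the bone marrow.

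The 21-base target sequences of the SYK hairpins, as the labels give them, are shown because several of the genes below differed between the hairpins.
shSYK_1: gcagcagaacagacatgtcaa
shSYK_2: gcaggccatcatcagtcagaa

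Upstream sequence was taken from RefSeq (GRCh38.p14), which held windows for 8 of the 9 genes. CCL2 had none in the table used. The 5 CXC ligands each have a match to the NF-kB motif GGAANTTCC within 250 bases before the start site, shown in capitals with its flanks.
CXCL8, chr4:73740462-73740502, plus strand: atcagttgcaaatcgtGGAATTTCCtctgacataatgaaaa
CXCL1, chr4:73869299-73869339, plus strand: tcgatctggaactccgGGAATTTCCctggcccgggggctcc
CXCL2, chr4:74099248-74099288, minus strand: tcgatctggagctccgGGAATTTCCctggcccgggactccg
CXCL3, chr4:74038743-74038783, minus strand: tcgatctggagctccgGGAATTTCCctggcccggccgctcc
CXCL10, chr4:76023649-76023689, minus strand: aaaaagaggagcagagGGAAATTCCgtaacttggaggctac
The match begins 91 bases before the start site in CXCL8, 78 in CXCL1, 77 in CXCL2, 78 in CXCL3 and 176 in CXCL10. Of all 35116 windows of this length, 290 held the motif on either strand, or 0.826%. Over these 41 bases CXCL1 and CXCL3 are identical at 38 positions, and CXCL1 and CXCL8 at 19. The motifs were chosen after the sequences had been seen, and a match is a description of the letters.

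CXCL8, CCR1 and CCR2 are shown at full length, since the results below turn on them. Capitals mark matches to the NF-kB motif, the AP-1 motif TGANTCA (in 6.57% of windows) and the ETS motif AGGAAGT (in 7.01%), on either strand.
CXCL8, chr4:73740319-73740568, plus strand: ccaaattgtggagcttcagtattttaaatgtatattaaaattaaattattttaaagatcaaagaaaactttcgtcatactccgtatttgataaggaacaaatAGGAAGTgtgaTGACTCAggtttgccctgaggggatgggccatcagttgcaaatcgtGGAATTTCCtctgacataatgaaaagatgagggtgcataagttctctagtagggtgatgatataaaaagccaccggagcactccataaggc
CCR1, chr3:46208314-46208563, minus strand: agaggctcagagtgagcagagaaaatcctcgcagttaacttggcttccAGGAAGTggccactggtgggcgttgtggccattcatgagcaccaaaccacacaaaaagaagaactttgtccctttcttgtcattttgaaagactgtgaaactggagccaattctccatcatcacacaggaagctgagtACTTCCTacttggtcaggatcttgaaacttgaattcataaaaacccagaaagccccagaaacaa
CCR2, chr3:46353861-46354110, plus strand: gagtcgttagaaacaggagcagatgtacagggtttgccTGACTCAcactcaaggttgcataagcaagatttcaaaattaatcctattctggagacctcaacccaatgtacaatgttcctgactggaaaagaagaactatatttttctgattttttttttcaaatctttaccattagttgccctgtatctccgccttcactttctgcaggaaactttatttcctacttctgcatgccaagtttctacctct
CXCL8 holds ETS, AP-1 and NF-kB matches in that order. CCR1 holds an ETS match on each strand, CCR2 holds an AP-1 match, and the windows of CXCR4 held none of the motifs. CXCL10 also holds a match to the interferon-response motif, GAAA, any 2 bases and GAAA, which 3.02% of windows have. No binding was measured in this study.

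SYK RNA was checked first. On the brighter of its 2 probe sets SYK fell with log2 changes of -2.62 for MOLM-14, -1.91 for U937 and -2.09 for HL-60, and every SYK hairpin array lay below every shLuc array of its line on both probe sets. With shSYK_2 SYK was lower than with shSYK_1 in MOLM-14 (log2 difference -0.67, adjusted p = 3.87e-05) and U937 (-0.44, adjusted p = 0.00209), and the difference in HL-60 was -0.24 (adjusted p = 0.0884). On the second SYK probe set the U937 difference was -0.37 (adjusted p = 0.00833), that of MOLM-14 -0.20 (adjusted p = 0.136) and that of HL-60 0.11 (adjusted p = 0.455). For 1 array, HL-60 shSYK_2 replicate 1, the title and treatment name shSYK_2 and the source name shSYK_1. It was kept with shSYK_2. Its change against shLuc had a correlation over probe sets of 0.607 with that of shSYK_2 replicate 2, and of 0.286 and 0.410 with those of the shSYK_1 replicates. Its upper quartile of intensity was 121.4, against 133.9 to 139.2 on the other arrays. Without it the probe sets called in HL-60 were not all the same ones. CXCL2 no longer passed and CCR2 on 206978_at did, with changes of 0.52 and 0.43. The values without it stand beside the main HL-60 results below. The counts of arrays that did not overlap were not recomputed without it.

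Averaged over the lines, 6 of the 21 probe sets rose with SYK knockdown and 1 fell, where 29.3% of all probe sets tested were called (13.9% higher and 15.4% lower). In MOLM-14 1 rose and 4 fell (15.8% of all probe sets called, 7.39% higher and 8.44% lower). In U937 5 rose and none fell (11.4%, with 5.44% and 6.0%), and in HL-60 4 rose and none fell (20.2%, with 8.88% and 11.3%). Counted in both directions together, the average and the HL-60 counts are near their background shares. The counts hold CCR1 with both probe sets in each line and CXCL8 with both bright ones in U937. By the brightest probe set of each of the 9 genes, 1 rose and 3 fell in MOLM-14, 3 rose in U937 and 3 rose in HL-60. The shares above are over all probe sets, so they are not a like measure for these counts of genes. The difference in response between MOLM-14 and the mean of U937 and HL-60 was called for 7 of the 21, 1 higher and 6 lower, against 3.88% of all probe sets (1.64% and 2.24%).

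By single hairpin, shSYK_1 gave 1 higher and 5 lower in MOLM-14 (20.5% of all probe sets called, 10.2% higher and 10.3% lower), 6 higher in U937 (13.2%, with 6.85% and 6.39%) and 4 higher in HL-60 (19.4%, with 9.81% and 9.61%). The hairpin shSYK_2 gave 1 higher and 5 lower in MOLM-14 (13.8%, with 6.34% and 7.43%), 3 higher in U937 (13.1%, with 6.29% and 6.84%) and 3 higher in HL-60 (18.3%, with 7.97% and 10.4%). The contrasts within a line share their shLuc arrays. All SYK hairpin arrays lay below all shLuc arrays for 5 probe sets in MOLM-14 and above for none (8.45% and 8.91% of all probe sets, 17.4% together). They lay above for 4 and below for none in U937 (8.0% and 7.43%, 15.4% together), and above for 7 and below for none in HL-60 (8.92% and 10.9%, 19.9% together). By the brightest probe set of each gene, the 6 ligands had a median change of 0.32 for the average and the 3 receptors of -0.12, beside 0.00 over all probe sets tested. In MOLM-14 all 3 receptors fell on that probe set with the hairpins pooled, with a median change of -0.65. Of these only CCR1 was called with each hairpin on every one of its probe sets, as given below.

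**Figure D1:**
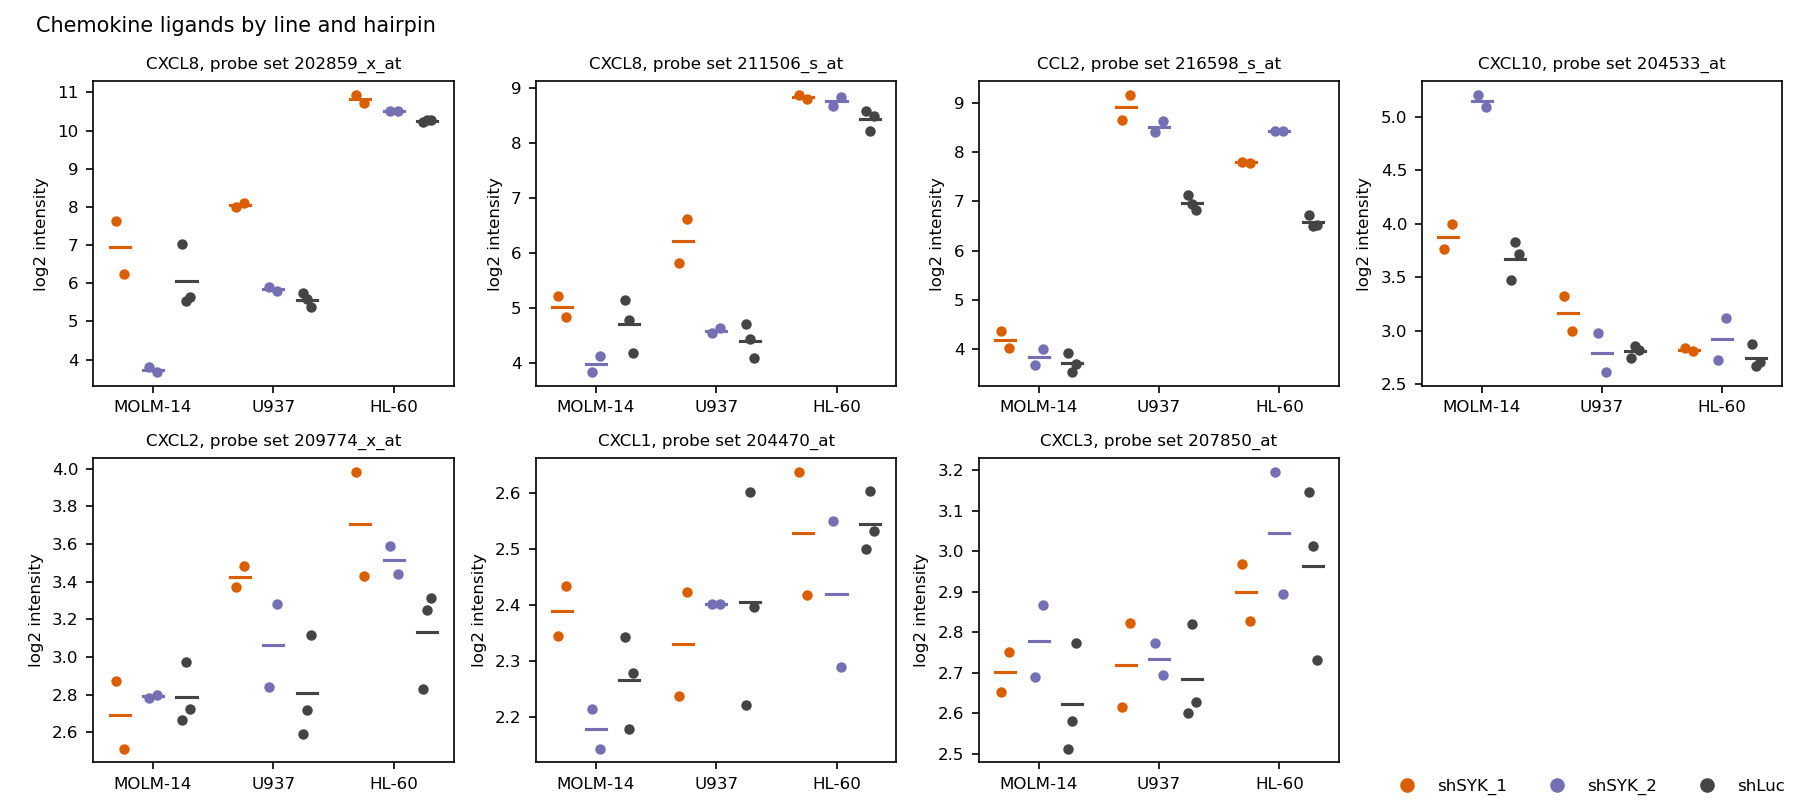
Log2 intensity (vertical axes, 1 scale per panel) of the 6 ligands on the 21 arrays, by line (horizontal axis) and hairpin; each point is 1 array and each bar a group mean. CCL2 lay higher with both SYK hairpins in U937 and HL-60, CXCL10 lay highest with shSYK_2 in MOLM-14, and the 2 hairpins parted for CXCL8 in MOLM-14 and U937.

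CCL2 showed the largest average rise of the 9 genes, 1.19 ± 0.0748 on the log2 scale (SE), or 2.28-fold (adjusted p = 4.23e-09). In U937 its log2 intensity was 8.67 and 9.16 with shSYK_1, 8.41 and 8.64 with shSYK_2, and 7.13, 6.95 and 6.83 with shLuc. In HL-60 CCL2 was 7.80 and 7.79 with shSYK_1, 8.43 and 8.44 with shSYK_2, and 6.72, 6.50 and 6.53 with shLuc. Both hairpins lay above all shLuc arrays in these 2 lines. In MOLM-14 CCL2 was near the low end of the scale, at 4.36 and 4.02 with shSYK_1, 3.66 and 4.0 with shSYK_2, and 3.92, 3.53 and 3.68 with shLuc, and the hairpin and shLuc arrays overlapped. CCL2 rose by 1.75 in U937 (3.35-fold, adjusted p = 1.21e-07) and by 1.53 in HL-60 (2.89-fold, adjusted p = 2.83e-07). The change of CCL2 in MOLM-14 was 0.30 (adjusted p = 0.143), and the difference of responses, MOLM-14 minus the mean of the other lines, was -1.34 (adjusted p = 8.86e-05). Without HL-60 shSYK_2 replicate 1, CCL2 rose by 1.53 in HL-60 (adjusted p = 2.40e-06).

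The difference between hairpins passed the test for CCL2 in HL-60, and not in U937 or MOLM-14. In U937 the CCL2 change was 1.94 with shSYK_1 and 1.55 with shSYK_2, a difference of -0.39 (adjusted p = 0.131, and 0.0311 without U937 shSYK_1 replicate 1). In HL-60 the CCL2 change was 1.21 with shSYK_1 and 1.85 with shSYK_2, a difference of 0.63 (adjusted p = 0.0148). This difference between hairpins in HL-60 was lost when any of 3 arrays was left out, with an adjusted p for CCL2 of 0.0731 without shSYK_1 replicate 1, 0.0647 without shSYK_1 replicate 2 and 0.0784 without shSYK_2 replicate 1. With that last array placed in shSYK_1, as its source name says, the CCL2 difference was 0.42 (adjusted p = 0.590). In MOLM-14 shSYK_1 alone passed the test for CCL2 (0.48, adjusted p = 0.0375), a call lost in 10 of 31 alternatives, among them those without shLuc replicate 2, shLuc replicate 3 or shSYK_1 replicate 1 (adjusted p = 0.136, 0.0841 and 0.352).

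CXCL8, a neutrophil chemoattractant, had the largest difference between the 2 SYK hairpins of the 9 genes in MOLM-14, in U937 and averaged over the lines, though not in HL-60, where CCL2 differed more. On its brightest probe set, 202859_x_at, CXCL8 in MOLM-14 was 7.64 and 6.24 with shSYK_1, 3.81 and 3.67 with shSYK_2, and 7.01, 5.53 and 5.63 with shLuc. The shSYK_2 arrays lay below all shLuc arrays, while the shSYK_1 arrays lay on both sides of the highest of them. In U937 CXCL8 was 7.99 and 8.10 with shSYK_1, 5.90 and 5.80 with shSYK_2, and 5.75, 5.60 and 5.37 with shLuc. Both hairpins lay above shLuc in U937, shSYK_2 by a small margin. In HL-60 CXCL8 was 10.92 and 10.73 with shSYK_1, 10.51 and 10.50 with shSYK_2, and 10.22, 10.28 and 10.26 with shLuc, again with no overlap.

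With shSYK_1 the CXCL8 change against shLuc was 0.88 in MOLM-14 (adjusted p = 0.0987) and 2.48 in U937 (5.57-fold, adjusted p = 1.38e-04). With shSYK_2 CXCL8 fell by 2.32 in MOLM-14 (adjusted p = 2.79e-04), and the change in U937 was 0.28 (adjusted p = 0.732). Since CXCL8 with shSYK_2 in MOLM-14 is near the low end of the scale, no fold is given for that fall. The test of shSYK_2 minus shSYK_1 itself gave -3.20 in MOLM-14 (adjusted p = 1.22e-05), -2.20 in U937 (adjusted p = 5.92e-04) and -0.32 in HL-60 (adjusted p = 0.635). Over the alternatives the shSYK_2 change of CXCL8 in MOLM-14 was as small as -1.52 and the hairpin difference there as small as -2.26. Averaged over the lines the hairpin difference of CXCL8 was -1.91 (adjusted p = 4.49e-06), and -1.90 without HL-60 shSYK_2 replicate 1. SYK itself was lower with shSYK_2 in U937 on both probe sets and in MOLM-14 on the brighter, and the part of that in the CXCL8 difference was not tested. In MOLM-14 whether shSYK_1 passed for CXCL8 rests on single arrays: without shLuc replicate 1 the change was 1.36 (adjusted p = 0.00220), and without shSYK_1 replicate 2 it was 1.58 (adjusted p = 0.00794).

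Because the hairpins parted, the change of CXCL8 pooled over both describes neither in MOLM-14 and U937. The pooled CXCL8 change was -0.72 in MOLM-14 (adjusted p = 0.124), and -1.07 without MOLM-14 shSYK_1 replicate 1 (adjusted p = 0.0130). In U937 it was 1.38 (adjusted p = 0.00535). In HL-60 the CXCL8 change was 0.41 (adjusted p = 0.388, and 0.483 without HL-60 shSYK_2 replicate 1), although no array overlapped. A fit of the HL-60 arrays alone, whose spread is smaller, gave 0.41 with an adjusted p of 0.0131. The average of CXCL8 over the lines was 0.36 (adjusted p = 0.142), and passed the test without MOLM-14 shLuc replicate 1 (0.52, adjusted p = 0.00550) or without MOLM-14 shSYK_1 replicate 2 (0.47, adjusted p = 0.0217). The difference of responses, MOLM-14 minus the other lines, was -1.61 for CXCL8 (adjusted p = 0.0184).

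A second CXCL8 probe set, 211506_s_at, followed 202859_x_at over the 21 arrays (r = 0.972, and 0.873 after each line's mean was subtracted; the arrays share the 3 lines). In U937 CXCL8 on 211506_s_at was 5.83 and 6.62 with shSYK_1, 4.55 and 4.64 with shSYK_2, and 4.71, 4.45 and 4.09 with shLuc. The shSYK_1 arrays again lay above all others. With shSYK_2 in MOLM-14 the CXCL8 change on 211506_s_at was -0.72 and did not pass (adjusted p = 0.0698), nor did it in 24 of 31 alternatives. This probe set gave hairpin differences of -1.04 in MOLM-14 (adjusted p = 0.0103) and -1.63 in U937 (adjusted p = 3.67e-04). The MOLM-14 difference on 211506_s_at was lost without shSYK_1 replicate 1 (adjusted p = 0.110) or shSYK_2 replicate 1 (adjusted p = 0.0980). Its average over the lines was 0.39 (adjusted p = 0.0227), lost without U937 shLuc replicate 3 (adjusted p = 0.0554) or HL-60 shLuc replicate 2 (adjusted p = 0.0513), and the line difference of -0.88 did not pass the test (adjusted p = 0.0694). The other 7 probe sets annotated to CXCL8 alone had mean log2 levels of 2.63 to 3.29, and their correlations with the brightest ran from -0.296 to 0.574. Over 19 comparisons, 1 of their tests was called, a level difference between lines. Whether those 7 read CXCL8 was not tested.

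CXCL10 had a low level throughout, and rose in MOLM-14 with shSYK_2. Its log2 intensity in MOLM-14 was 3.76 and 4.0 with shSYK_1, 5.20 and 5.09 with shSYK_2, and 3.48, 3.83 and 3.72 with shLuc. The shSYK_2 arrays stood above all others of the line, and the shSYK_1 arrays overlapped shLuc. The CXCL10 change was 1.47 with shSYK_2 (adjusted p = 2.53e-06) and 0.20 with shSYK_1 (adjusted p = 0.368), and the hairpin difference was 1.27 (adjusted p = 9.88e-06). Since the level is low, no fold is given. Over the alternatives the shSYK_2 change of CXCL10 was as small as 0.84 and the hairpin difference as small as 0.74. In U937 the 4 SYK hairpin arrays of CXCL10 ran from 2.61 to 3.33 and the shLuc arrays from 2.75 to 2.86, and in HL-60 they ran from 2.73 to 3.12 and from 2.67 to 2.87. The pooled change of CXCL10 was 0.84 in MOLM-14 (adjusted p = 9.80e-05), 0.17 in U937 and 0.13 in HL-60, and the line difference was 0.69 (adjusted p = 0.00983). In MOLM-14 CXCL10 and CXCL8 thus both separated the hairpins, CXCL10 being higher and CXCL8 lower with shSYK_2.

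CXCL2, CXCL1 and CXCL3, whose sequences are closely alike so that a probe set may read more than 1 of them, gave dim signals, at the 28.8, 5.38 and 19.4 percentiles of all probe sets by mean intensity. CXCL2 in HL-60 was 3.98 and 3.43 with shSYK_1, 3.59 and 3.44 with shSYK_2, and 2.83, 3.25 and 3.31 with shLuc. The groups did not overlap, by a margin smaller than the range within shLuc. The CXCL2 change was 0.48 in HL-60 (adjusted p = 0.0445, and 0.0621 without HL-60 shSYK_2 replicate 1), 0.44 in U937 (adjusted p = 0.0994) and -0.04 in MOLM-14. The HL-60 call for CXCL2 was lost in 19 of 32 alternatives, 12 of which left out 1 array, and its average of 0.29 (adjusted p = 0.0253) in 6 of 31, all of which left out 1 array. In single hairpins CXCL2 passed with shSYK_1 in U937 (0.62, adjusted p = 0.0428) and HL-60 (0.58, adjusted p = 0.0446). The U937 call was lost in 13 of 30 alternatives, 7 of which left out 1 array, and the HL-60 call in 16 of 30, 10 of which left out 1 array. With log2(value + 16) these CXCL2 changes were 0.21 and 0.23. CXCL1 ran from 2.14 to 2.64 and CXCL3 from 2.51 to 3.20 over all arrays, and no knockdown comparison was called for either.

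**Figure D2:**
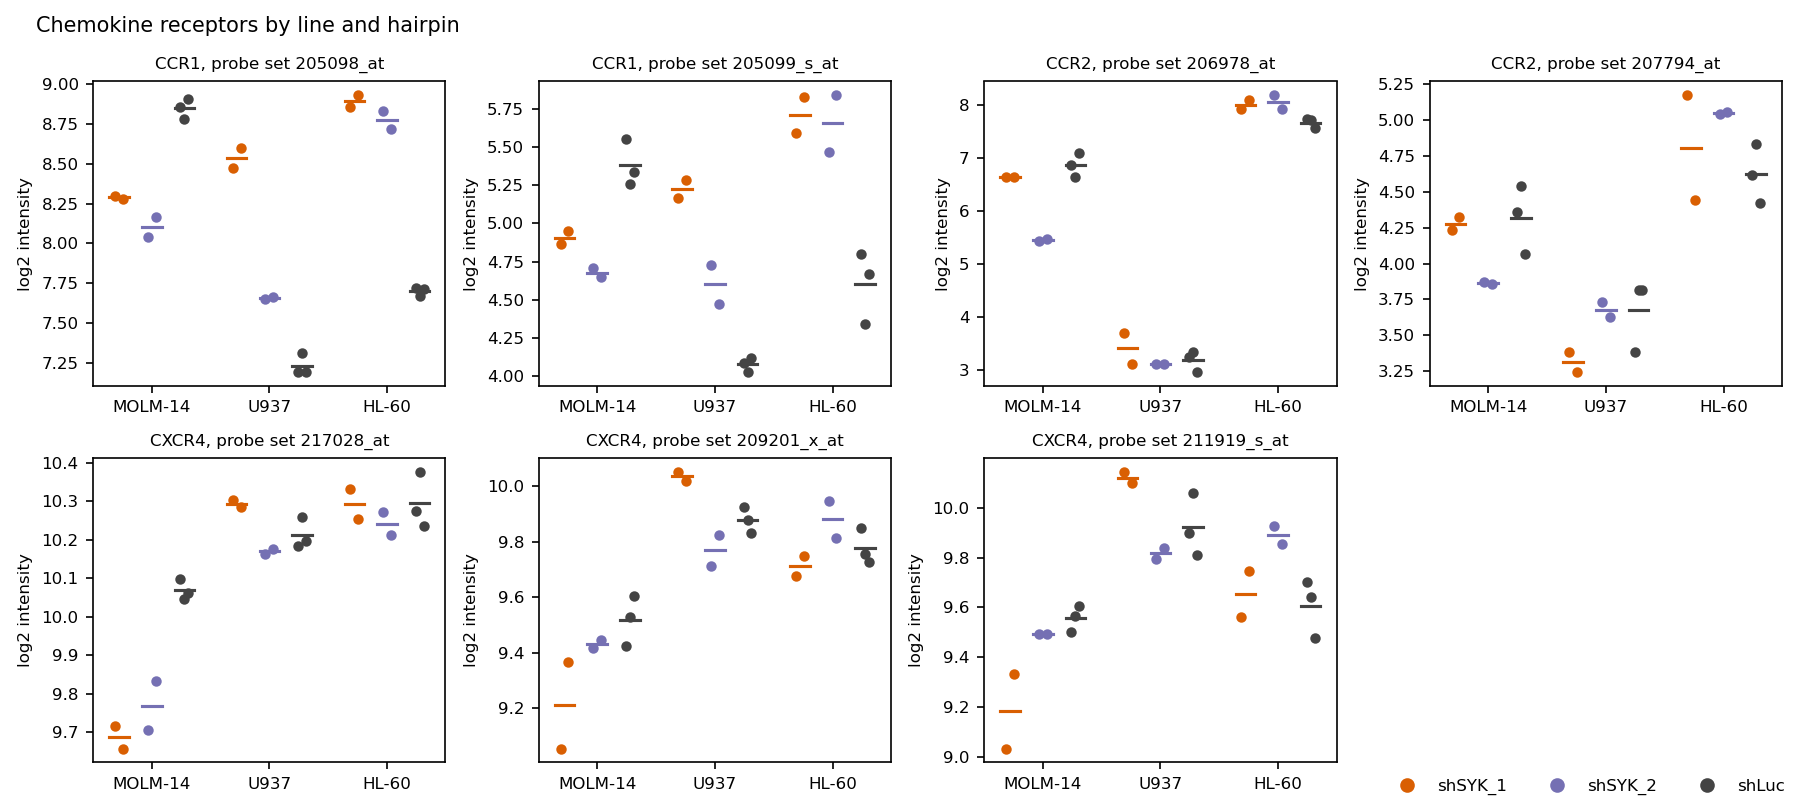
Log2 intensity (vertical axes, 1 scale per panel) of the 3 receptors on each of their 7 probe sets, by line and hairpin; points are arrays and bars group means. CCR1 lay below shLuc with both SYK hairpins in MOLM-14 and above it in U937 and HL-60, on both probe sets.

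CCR1 moved in opposite directions by line. In MOLM-14 its brighter probe set, 205098_at, was 8.30 and 8.28 with shSYK_1, 8.04 and 8.17 with shSYK_2, and 8.85, 8.78 and 8.91 with shLuc. In U937 CCR1 was 8.47 and 8.60 with shSYK_1, 7.65 and 7.66 with shSYK_2, and 7.19, 7.31 and 7.19 with shLuc. In HL-60 CCR1 was 8.85 and 8.93 with shSYK_1, 8.83 and 8.72 with shSYK_2, and 7.72, 7.67 and 7.72 with shLuc. The hairpin arrays lay below every shLuc array in MOLM-14 and above every shLuc array in U937 and HL-60.

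CCR1 fell by 0.65 ± 0.0599 in MOLM-14 (SE; 1.57-fold lower, adjusted p = 1.95e-06). It rose by 0.86 in U937 (1.82-fold, adjusted p = 5.99e-08) and by 1.13 in HL-60 (2.19-fold, adjusted p = 1.17e-09), and by 1.16 in HL-60 without shSYK_2 replicate 1. The difference of responses for CCR1, MOLM-14 minus the mean of the others, was -1.65 (adjusted p = 1.01e-09), and -1.66 without HL-60 shSYK_2 replicate 1. Both hairpins passed the test in every line: in MOLM-14 the CCR1 changes were -0.56 with shSYK_1 and -0.74 with shSYK_2, in U937 1.30 and 0.42, and in HL-60 1.19 and 1.07, each pair in that order of hairpins. Without the array of doubtful label the CCR1 change in HL-60 with shSYK_2 was 1.13. In U937 the hairpins differed by -0.88 (adjusted p = 5.12e-07), and CCR1 stood lower with shSYK_2, as CXCL8 did. In HL-60 the hairpin difference of CCR1 was -0.12 (adjusted p = 0.330) and in MOLM-14 -0.19 (adjusted p = 0.112). The U937 response minus the HL-60 response of CCR1 was -0.27 (adjusted p = 0.0887).

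The second CCR1 probe set, 205099_s_at, lay lower and gave the same directions. Its changes were -0.59 in MOLM-14 (adjusted p = 0.00149), 0.83 in U937 (adjusted p = 9.39e-05) and 1.08 in HL-60 (adjusted p = 2.96e-06, and 0.98 without HL-60 shSYK_2 replicate 1), with a line difference of -1.54 (adjusted p = 5.75e-06). With shSYK_1 alone in MOLM-14 its change of -0.47 (adjusted p = 0.0171) was lost without shLuc replicate 1 or either shSYK_1 array (adjusted p = 0.0738, 0.121 and 0.0610). On 205099_s_at the CCR1 hairpin difference in U937 was -0.62 (adjusted p = 0.00559), and it was lost without U937 shSYK_1 replicate 2 (adjusted p = 0.0518) or shSYK_2 replicate 2 (adjusted p = 0.0865). The mean of the 2 opposite directions still left CCR1 higher in the average over lines, by 0.45 on 205098_at (adjusted p = 4.21e-08). That average describes no single line.

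CCR2, the receptor of CCL2, fell in MOLM-14 with shSYK_2. On 206978_at CCR2 in MOLM-14 was 6.64 and 6.64 with shSYK_1, 5.44 and 5.47 with shSYK_2, and 6.88, 6.64 and 7.10 with shLuc. The shSYK_2 arrays lay far below the rest, and the shSYK_1 arrays sat at the lowest shLuc array. The CCR2 change was -1.41 with shSYK_2 (2.67-fold lower, adjusted p = 1.18e-05) and -0.23 with shSYK_1 (adjusted p = 0.366), and the hairpin difference was -1.19 (adjusted p = 6.02e-05). Pooled over hairpins CCR2 fell by 0.82 in MOLM-14 (adjusted p = 3.20e-04).

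In HL-60 CCR2 on 206978_at was 7.92 and 8.10 with shSYK_1, 8.18 and 7.93 with shSYK_2, and 7.73, 7.71 and 7.57 with shLuc. The groups did not overlap, and the change of CCR2 in HL-60 was 0.36 (adjusted p = 0.0603). It passed in 11 of 33 alternatives, among them without HL-60 shSYK_2 replicate 1 (0.43, adjusted p = 0.0494), without MOLM-14 shLuc replicate 2 (adjusted p = 0.0486) or 3 (0.0496), and without either U937 shSYK_1 array (adjusted p = 0.0250 each). In U937 CCR2 was near the bottom of the scale, from 3.11 to 3.70 with the SYK hairpins and from 2.96 to 3.34 with shLuc. The line difference of CCR2 was -1.04 (adjusted p = 9.61e-04). The average of CCR2 over lines was -0.13 (adjusted p = 0.231, and 0.0494 without U937 shSYK_1 replicate 1). The dimmer probe set of CCR2, 207794_at, was not called in any knockdown comparison; its HL-60 change of 0.30 passed without HL-60 shSYK_1 replicate 2 (adjusted p = 0.0206). With shSYK_2 in MOLM-14 it read 3.87 and 3.86, against 4.36, 4.54 and 4.07 with shLuc, a change of -0.46 (adjusted p = 0.122), which passed with either HL-60 shSYK_1 array left out.

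CXCR4 gave bright signals, each of its 3 probe sets ranking at or above the 94.4 percentile of all probe sets by mean intensity. On 217028_at CXCR4 in MOLM-14 was 9.72 and 9.66 with shSYK_1, 9.70 and 9.83 with shSYK_2, and 10.10, 10.05 and 10.06 with shLuc. All hairpin arrays lay below all shLuc arrays in MOLM-14. CXCR4 fell by 0.34 there (1.27-fold lower, adjusted p = 4.11e-04), with -0.38 for shSYK_1 and -0.30 for shSYK_2 (adjusted p = 4.34e-04 and 0.00528). The shSYK_2 call of CXCR4 was lost without MOLM-14 shSYK_2 replicate 1 (adjusted p = 0.112). In U937 the CXCR4 arrays ran from 10.16 to 10.30 with the SYK hairpins and from 10.18 to 10.26 with shLuc, and in HL-60 from 10.21 to 10.33 and from 10.23 to 10.38, overlapping in both. The line difference of CXCR4 was -0.34 (adjusted p = 0.00853).

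The other CXCR4 probe sets gave smaller changes in MOLM-14, with -0.20 on 209201_x_at (adjusted p = 0.0813) and -0.22 on 211919_s_at (adjusted p = 0.0830). Without MOLM-14 shSYK_1 replicate 2 both passed (adjusted p = 0.0137 and 0.0242). With shSYK_1 CXCR4 fell on both, by 0.31 and 0.37 (adjusted p = 0.0179 and 0.0103), and both calls were lost without MOLM-14 shSYK_1 replicate 1 (adjusted p = 0.348 and 0.217). The first was lost also without MOLM-14 shLuc replicate 3 (adjusted p = 0.0686). With shSYK_2 the CXCR4 changes were -0.09 and -0.06 on these probe sets (adjusted p = 0.612 and 0.768). Between the hairpins in MOLM-14, shSYK_2 minus shSYK_1 was 0.22 on 209201_x_at (adjusted p = 0.126) and 0.31 on 211919_s_at (adjusted p = 0.0462). The call on 211919_s_at was lost in 17 of 31 alternatives, 12 of which left out 1 array. The size of the CXCR4 change in MOLM-14 therefore depended on the probe set, and the average over the lines, -0.12 on 217028_at (adjusted p = 0.0102), was -0.06 for the mean of the 3 probe sets (adjusted p = 0.198).

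**Figure D3:**
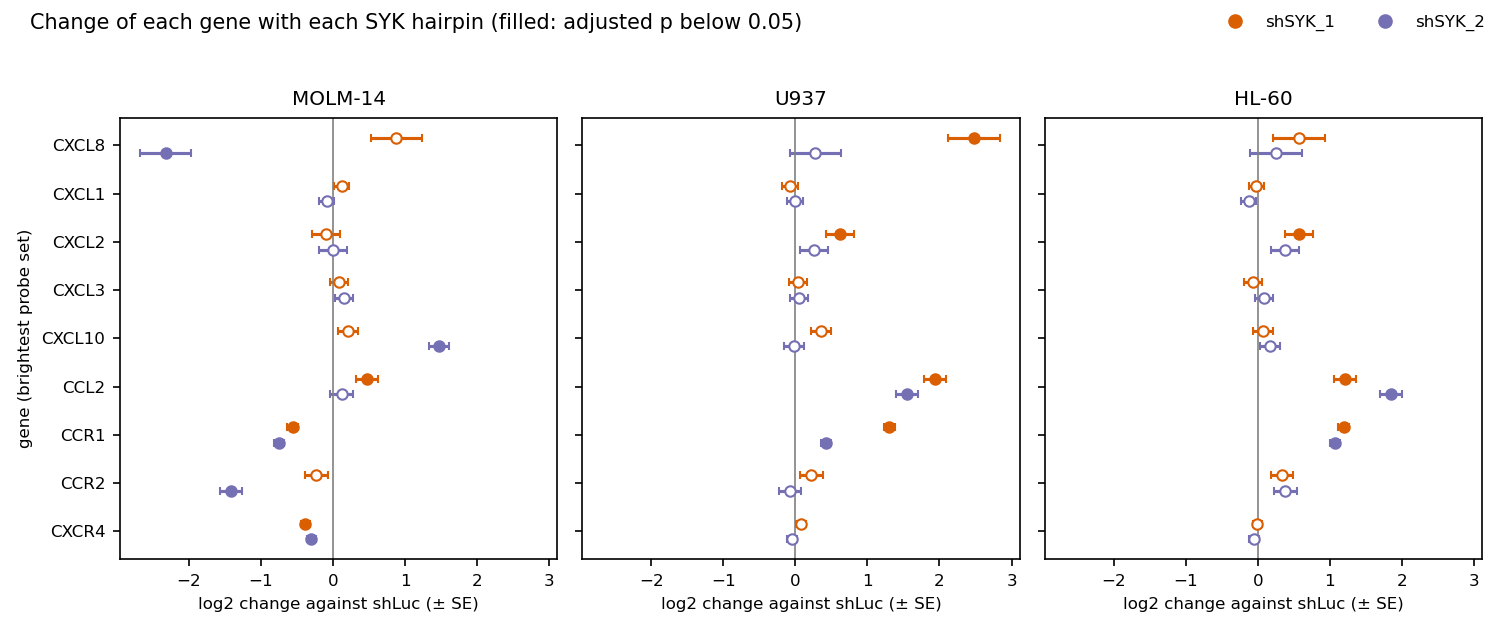
Log2 change against shLuc with its SE (horizontal axis) of each gene's brightest probe set (vertical axis) for shSYK_1 and shSYK_2 in each line; filled points have an adjusted p below 0.05. The 2 hairpins lie apart for CXCL8 in MOLM-14 and U937 and for CXCL10 and CCR2 in MOLM-14, and close together for CCR1 in MOLM-14 and HL-60.

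Over the 21 probe sets, shSYK_2 minus shSYK_1 was called for 2 higher and 3 lower in MOLM-14 (21.5% of all probe sets called, 10.6% higher and 10.9% lower), for 4 lower in U937 (19.0%, with 9.31% and 9.67%) and for 1 higher in HL-60 (18.3%, with 7.52% and 10.7%). Averaged over the lines 1 was higher and 5 lower (30.7%, with 14.2% and 16.5%). The average difference was -0.40 for CCR1 on 205098_at (adjusted p = 3.09e-06), -0.48 for CCR2 on 206978_at (adjusted p = 0.00104) and 0.33 for CXCL10 (adjusted p = 0.00716). The last was 0.27 for CXCL10 without HL-60 shSYK_2 replicate 1 (adjusted p = 0.0277) and 0.24 with that array placed in shSYK_1 (adjusted p = 0.0831).

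The response of U937 minus that of HL-60 was called by limma for 0 of the 21 probe sets (4.79% of all probe sets called, 2.02% higher and 2.76% lower), and 4 had an unadjusted p below 0.05. That does not show that these lines respond alike.

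Between lines, levels in shLuc cells differed for more of the 21 probe sets than with knockdown, as they did over all probe sets. MOLM-14 minus U937 was called for 6 higher and 3 lower (46.6% of all probe sets, 23.6% higher and 23.0% lower), MOLM-14 minus HL-60 for 3 higher and 8 lower (43.9%, with 20.3% and 23.7%), and U937 minus HL-60 for 2 higher and 6 lower (47.9%, with 22.3% and 25.6%). CXCL8 on 202859_x_at was highest in HL-60, with MOLM-14 lower by a log2 difference of -4.20 (18.4-fold lower) and U937 by -4.69 (25.7-fold lower), while MOLM-14 and U937 did not differ beyond their spread (0.49, adjusted p = 0.243). CCL2 was highest in U937, then HL-60 (U937 minus HL-60 0.39, adjusted p = 0.0284, and 0.0554 to 0.125 without U937 shLuc replicate 1 or 2 or HL-60 shLuc replicate 2 or 3), and MOLM-14 was lowest, with log2 differences of -3.26 from U937 and -2.87 from HL-60. Centring the arrays on their medians ended the U937 minus HL-60 call of CCL2 (0.27, adjusted p = 0.110). Since CCL2 in MOLM-14 is near the low end of the scale, no fold is given, and with log2(value + 16) its differences were -2.28 and -1.94. CXCL10 was highest in MOLM-14, above U937 by 0.87 and HL-60 by 0.93 (0.32 and 0.34 with log2(value + 16)), and U937 and HL-60 did not differ beyond their spread (0.06, adjusted p = 0.739).

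CCR1 in shLuc cells was highest in MOLM-14, above HL-60 by 1.15 and above U937 by 1.62, and U937 was lower than HL-60 by a log2 difference of -0.47 (adjusted p = 6.87e-06). In the lines where CCR1 started lower it rose, and in the line where it started highest it fell. The changes are taken against the same shLuc arrays, so starting level and change are not independent. U937 started lowest, and the CCR1 change was 0.86 there and 1.13 in HL-60, a difference that did not pass the test (-0.27, adjusted p = 0.0887). By hairpin the CCR1 changes in U937 and HL-60 were 1.30 and 1.19 with shSYK_1, and 0.42 and 1.07 with shSYK_2. Whether the change of CCR1 depends on its starting level was not tested. With shSYK_1 its levels were 8.30 and 8.28 in MOLM-14, 8.47 and 8.60 in U937, and 8.85 and 8.93 in HL-60. With shSYK_2 the mean level of CCR1 was 8.10 for MOLM-14, 7.66 for U937 and 8.77 for HL-60. CCR2 on 206978_at was highest in HL-60, then MOLM-14 (MOLM-14 minus HL-60 -0.80, adjusted p = 1.20e-04), and U937 was lowest, with a log2 difference from HL-60 of -4.49. CCR2 in U937 is near the bottom of the scale, and with log2(value + 16) that difference was -3.13. CXCR4 on 217028_at was lower in MOLM-14 than in HL-60 (-0.23, adjusted p = 0.00431), while MOLM-14 minus U937 did not pass (-0.14, adjusted p = 0.0559), although the MOLM-14 shLuc arrays all lay below those of U937. On the other CXCR4 probe sets MOLM-14 was lower than U937, with differences of -0.36 on 209201_x_at (adjusted p = 9.39e-04) and -0.37 on 211919_s_at (adjusted p = 0.00181). MOLM-14 minus HL-60 was -0.26 on 209201_x_at (adjusted p = 0.0128, lost without shLuc replicate 1 of either line) and -0.05 on 211919_s_at (adjusted p = 0.690). U937 minus HL-60 was called for CXCR4 on 211919_s_at (0.32, adjusted p = 0.00541) and not on 217028_at (-0.08, adjusted p = 0.280) or 209201_x_at (0.10, adjusted p = 0.325), so the calls depend on the probe set.

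**Figure D4:**
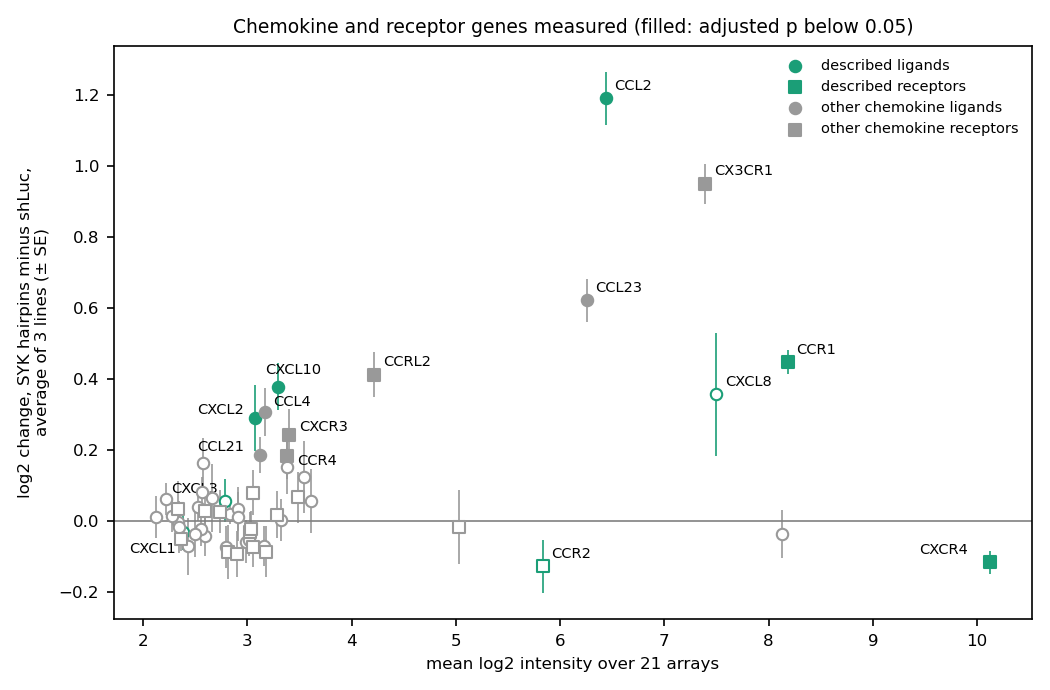
Average log2 change with SYK knockdown over the 3 lines with its SE (vertical axis) against mean log2 intensity over 21 arrays (horizontal axis) for the 9 genes and the 28 other ligands and 18 other receptors measured. CCL2 at 1.19 and CX3CR1 at 0.95 stand highest, and most of the others sit below a level of 4 and near 0.

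The counts that follow are for the average over the lines, where 29.3% of all probe sets were called (13.9% higher and 15.4% lower). A share near that is no result about a list. The lists and the markers below are read by the brightest probe set of each gene. Their counts and the shares over all probe sets are therefore not a like comparison. Of 28 other chemokine ligands measured, 3 rose on average and none fell, with a median change of 0.01 beside 0.00 over all probe sets tested. They were CCL23, a CCR1 ligand (0.62), CCL4, an inflammatory ligand (0.31), and CCL21, a CCR7 ligand (0.19). CCL23 rose by 1.17 in MOLM-14 and by 0.68 in U937, and its change was 0.01 in HL-60. Of 18 other receptors measured, 4 rose and none fell, with a median of 0.02. CX3CR1, the fractalkine receptor, rose in all 3 lines, with changes of 0.63 for MOLM-14, 0.78 for U937 and 1.44 for HL-60. The remaining 3 were CCRL2 (0.41), a receptor-like protein that binds chemerin, CXCR3 (0.24), the receptor of CXCL10, and CCR4 (0.18). CXCR3 and CCR4 had low mean levels, 3.40 and 3.38, and neither was called in any single line. CCL4 and CCL21, at mean levels of 3.17 and 3.12, were called in HL-60 alone.

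Among 22 genes of receptor signalling, 7 rose and 4 fell on average, with a median change of 0.09. The 4 named here had the smallest p. GNB1, a G protein beta subunit, fell by 0.82, and ELMO1, a RAC activator that works with DOCK2, fell by 0.33. RGS16, which speeds the shut-off of G proteins, fell by 0.67, and VAV1, a RAC exchange factor, rose by 0.31. Among 19 NF-kB and AP-1 factors and inducers 6 rose and 2 fell: JUN rose by 0.61, BCL3 by 0.44, FOSL2 by 0.50 and IL1B, an inflammatory cytokine, by 0.40. The 2 that fell were TNF, another inflammatory cytokine (-0.30), and JUND, an AP-1 subunit (-0.16). JUN and BCL3 rose in each line, and the other averages cover unlike lines. IL1B was called in HL-60 alone (1.16, with -0.17 in MOLM-14 and 0.21 in U937) and JUND in MOLM-14 alone (-0.50). FOSL2 was not called in HL-60 (0.19), nor TNF in U937 (0.16). Among 14 interferon pathway genes 5 rose and 1 fell, with IRF9 at 0.69, IFNGR1 at 0.50 and STAT3 at 0.27 above shLuc and IFNAR2 at -0.27. The median changes of these last lists were 0.01 and 0.04, beside 0.00 over all probe sets tested.

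The myeloid markers had summed intensities on 8 genes of 3243 to 3552 with the SYK hairpins and 3482 to 3687 with shLuc in MOLM-14, of 2261 to 2519 and 2554 to 2598 in U937, and of 7552 to 8010 and 9250 to 9709 in HL-60. In HL-60 3 of the 8 rose and 3 fell, where 20.2% of all probe sets were called. CD14, a monocyte marker, rose by 2.39 and MPO, a granule enzyme of myeloid precursors, fell by 0.54. ANPEP (0.59) and PTPRC (0.56) also rose there, CEBPA (-0.18) and FLT3 (-0.47) also fell, and CSF1R (0.32) and SPI1 (-0.08) were not called. CCL2 and CCR1 rose in the same arrays. In MOLM-14 and in U937 none of the 8 rose and 1 fell, against 15.8% and 11.4% of all probe sets called. In MOLM-14 the changes were 0.09 for CD14 and -0.83 for MPO, and in U937 0.05 and -0.08. The part of these markers in the chemokine results was not tested. Of the measured markers of other cells, for the average and its background of 29.3%, 1 rose and 2 fell among 7 of T and NK cells, 1 rose among 8 of epithelial and stromal cells, and none was called among 4 of B cells and 5 of erythroid cells and megakaryocytes. NKG7 was the only one of those called with a mean level above 4, at 8.33, and fell by 0.16. Summed B-cell markers ran from 39.6 to 50.5 over all arrays.

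The genes whose pattern over the 21 arrays was most like each called gene, after each line's mean was subtracted, were chosen by Pearson r with the dimmest 40% of probe sets left out. They were FCER1G (r = 0.971) and PLIN2 (0.878) for CCR1, IL17RA (0.955) and TACC1 (0.919) for CXCL8, and EIF4EBP2 (0.932) and TYROBP (0.914) for CCL2. For CXCL10 they were BAX (0.871) and PTP4A1 (0.855), for CCR2 SLC25A5 (0.859) and MBP (0.843), for CXCR4 ALDH1A3 (0.844) and JUND (0.839), and for CXCL2 SPTSSA (0.789) and PLAU (0.782). FCER1G encodes the common gamma chain of Fc receptors and TYROBP the adaptor DAP12, both of which carry the motifs that SYK binds. Among the 9 genes, CCL2 and CCR1 had r = 0.771 on this scale, CXCL8 and CCR2 r = 0.693, and CXCL10 and CCR2 r = -0.735. The arrays share hairpins and lines, so these are descriptions.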

How the data were processed

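Values were made by the authors with RMA, which corrects background, normalises across arrays and summarises probe sets; the submitters' processing notes name the tool without a version. The intensity values the authors deposited are linear, between 3.232 and 13024.7. The tests had been planned for log2 values, so log2 was taken here with no offset. RMA gives no detection call and compresses changes at low intensity. Array medians ran from 18.4 to 20.6, with every HL-60 array below every array of the other lines, and the number of arrays limits the precision.

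Of 22277 probe sets, 62 controls were left out and 22215 tested. One symbol was given for 19724, several for 568 and none for 1923. Of those with one symbol, 19707 were matched by gene ID to RefSeq (GRCh38.p14), whose symbol was then used, whether or not it differed. A single fit of 9 group means to 21 arrays used limma 3.58.1 in R 4.3.3 (12 residual and 4.47 prior degrees of freedom), with Benjamini-Hochberg adjustment over all probe sets and two-sided tests. The script was tested on simulated data. Every probe set of each gene is described. In the other lists each gene was read by its brightest probe set, and up to 4 called genes with the smallest p for the average were named. Likeness took the best 2 genes, and genes named elsewhere (CD14, MPO, NKG7, TNF, JUND) were chosen after their values were seen. The genes and lists were chosen with earlier results of these data known.

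Same-numbered replicates were compared in 18 pairs of arrays, with correlations of -0.203 to 0.0834, none over 0.1. Between the SYK hairpins, with 2 arrays each, replicates 1 and 2 give the same value by construction, so the 18 are not all separate evidence. The numbers were not used to pair samples. Alternatives covered the offset, normalisation, a filter on dim probe sets, the prior, array weights, a fit per line, the replicate block, probe set summaries, the doubtful label and leaving out each array.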

Additional observations from a re-analysis of the deposited data

Results flagged for a closer look

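For 7 probe sets the response to SYK knockdown in MOLM-14 differed from the mean of the responses in U937 and HL-60, by the test of that difference in the limma fit, among 3.88% of all probe sets. The log2 difference was -1.65 for CCR1 on 205098_at and -1.54 on 205099_s_at, where the responses had opposite signs. It was -1.61 for CXCL8 on 202859_x_at, -1.34 for CCL2, -1.04 for CCR2 on 206978_at and -0.34 for CXCR4 on 217028_at, and 0.69 for CXCL10. For CXCL8, CXCL10 and CCR2 the hairpins themselves differed in MOLM-14, so the pooled response there is a mean of unlike values. SYK was also lowered more in MOLM-14 on the brighter SYK probe set (difference -0.63, adjusted p = 3.76e-04) but not on the second (-0.05, adjusted p = 0.841), and the part of that in these differences was not tested.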

How the results depend on the processing

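The counts of called probe sets stayed within 1.5 times of those reported under every alternative run, except for U937 minus HL-60, where 0 became 1 (CCR1 on 205098_at) with log2(value + 16), with the dimmest 40% left out and with a trended and robust prior; these use other variance estimates or fewer probe sets. Leaving out 1 array at a time gave 6 to 8 calls for the average (7 reported), 5 to 7 in MOLM-14 (5), 5 to 6 in U937 (5), 3 to 5 in HL-60 (4), 25 to 29 for single hairpins (28), 6 to 7 for the average hairpin difference (6), 8 to 13 for it within lines (10), 7 to 8 for MOLM-14 against the others (7), 0 for U937 minus HL-60, and 26 to 31 for levels (28). With a replicate block the counts were 5 for the average and 6, 5 and 3 for MOLM-14, U937 and HL-60, and the line differences of CXCL10 (adjusted p = 0.0531) and CXCR4 on 217028_at (0.174) and the averages of CXCR4 on 217028_at (0.0641) and CXCL8 on 211506_s_at (0.130) were lost; levels between lines cannot be estimated with blocks that lie within lines. Crossing the 2 numbers of HL-60 shSYK_2, chosen after seeing the data because they had the lowest correlation with shSYK_1, gave the same 4 counts. Single probe sets are followed where some setting called them. Signs turned for dim CXCL8 probe sets in levels between shLuc lines: with 1 array left out, 211650_x_at ran from -0.0280 to 0.222 for MOLM-14 minus U937 and from -0.220 to 0.0305 for U937 minus HL-60 (turned without U937 shLuc replicate 1 or 3), and 217281_x_at from -0.249 to 0.0150 for U937 minus HL-60 (turned without HL-60 shLuc replicate 3). CXCL10, CXCL1, CXCL2, CXCL3 and the dim CXCL8 probe sets, 11 in all, fell under the 40% filter, and their changes are limited by signal over background.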
